A study of Mus musculus with 3 samples.

Results

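The T cell receptor signalling genes described here are 38 mouse genes that encode the CD3 chains of the receptor, surface proteins that act beside it, its kinases, adaptors and effector enzymes, the NFAT transcription factors, and proteins that restrain the signal. They were chosen by function, with earlier results of these data known, and each was placed in 1 of 5 role lists. Tcf1 is an HMG-box factor and the product of Tcf7, and its binding was counted at a gene when the midpoint of a peak lay in the gene's span. A midpoint outside every span went to the nearest protein-coding gene within 100 kb. By this rule the 38 genes, of 21887 protein-coding genes in all, held 56 of 4519 peaks of conventional CD4 T cells and 38 of 3402 peaks of regulatory T cells (Treg cells).

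The peaks came from chromatin immunoprecipitation with antiserum against Tcf1 and sequencing (ChIP-seq). Both cell types were sorted from the spleen of wild type mice that carry the Foxp3-Cre-GFP allele, aged 8 to 10 weeks. That allele makes Cre and GFP in cells that express Foxp3, and both groups carry it. Conventional cells were TCRb+ and CD4+ and lacked CD25 and Foxp3-Cre-GFP, while Treg cells were TCRb+ and CD4+ and carried both. The conventional sample is called conventional in its title and effector in its tissue label. Each cell type had 1 library, with 1 list of peaks in mm10 coordinates, and how many mice each library represents is not stated in the labels. A further library, of Tcf1-deficient CD4 T cells from CD4-Cre+ Tcf1 fl/fl mice, was not analysed here. The lists give positions and no read counts or heights, so the depth is unknown and no test between the cell types was possible. A difference between the lists can therefore not be told apart from a difference in depth, calling or filtering between 2 libraries. The lists do not check the sort either, since a peak is no measure of expression. Of 8 marker genes of CD8 T cells, B cells and myeloid cells, 1 (Cd8b1) had a conventional peak and 0 had a Treg peak, where 16.3% and 12.3% of all protein-coding genes had one. Cd4 and Foxp3 had no peak in either list, the Treg markers Il2ra and Ctla4 had 1 in each list, and Ikzf2 had 1 conventional and no Treg peak.

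When the T cell receptor binds its ligand, the Src family kinases Lck and Fyn phosphorylate the cytoplasmic tails of the CD3 chains, and the kinase Zap70 docks on them. Zap70 phosphorylates the adaptors LAT and SLP-76 (encoded by Lcp2), which gather phospholipase C, Vav1 and activators of Ras and so start calcium, NFAT, NF-kappaB and MAP kinase signals. Phosphatases, ubiquitin ligases and diacylglycerol kinases hold the pathway back. Tcf1 acts in T cell development and in the maintenance of naive and memory T cells, and it binds a short DNA motif that it shares with its relative Lef1.

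Tcf1 peaks were present at most of these genes in both cell types. A conventional peak lay at 28 of 38 genes, where 16.3% of all protein-coding genes had one, and a Treg peak at 27 of 38, where 12.3% of all genes had one. Both lists had a peak at 23 genes (8.17% of all genes), the conventional list alone at 5 (8.1%) and the Treg list alone at 4 (4.13%). The remaining 6 genes had none, as did 79.6% of all genes. Of the 28 genes with a conventional peak 5 had no Treg peak, against 1773 of 3561 over all genes. Of the 27 with a Treg peak 4 had no conventional peak, against 903 of 2691 over all genes. The median was 1 peak per gene in each list, against 0 over all protein-coding genes. More than 1 conventional peak was found at 15 genes and more than 1 Treg peak at 7, where 2.81% and 1.69% of all genes had that many. These are long genes, and 32 of the 38 were longer than the median protein-coding span of 17169 bp. Of those 32, 25 had a conventional and 23 a Treg peak, against 21.4% and 16.4% of all genes above the median length. The files hold no expression values, so genes that are active in T cells could not be set apart as a background.

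The number of genes with a peak was equal or similar in the 2 cell types in each role list except the negative regulators. Over all genes the shares were 16.3% (conventional) and 12.3% (Treg). Peaks in the conventional list alone were found at 8.1% of all genes, and in the Treg list alone at 4.13%. The conventional list was also the longer one (4519 against 3402 peaks). Of the 8 receptor and surface genes 7 had a conventional and 7 a Treg peak, and of the 7 kinases 5 and 5. Adaptors and effectors had a conventional peak at 6 of 10 members and a Treg peak at 8, and NFAT genes at 1 and 2 of 3. Negative regulators had a conventional peak at 9 of 10 members and a Treg peak at 5, and of their 5 Treg peaks 4 overlapped a conventional peak and 1, at Cbl, had one within 1000 bp. Counted as peaks, kinases held 20 conventional and 12 Treg peaks and negative regulators 13 and 5. Receptor and surface genes held 11 and 10, adaptors and effectors 11 and 9, and NFAT genes 1 and 2. More conventional than Treg peaks lay at 5 of 7 kinases, and more Treg peaks at 1. No test of these differences was made, because each cell type had 1 library.

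**Figure D1:**
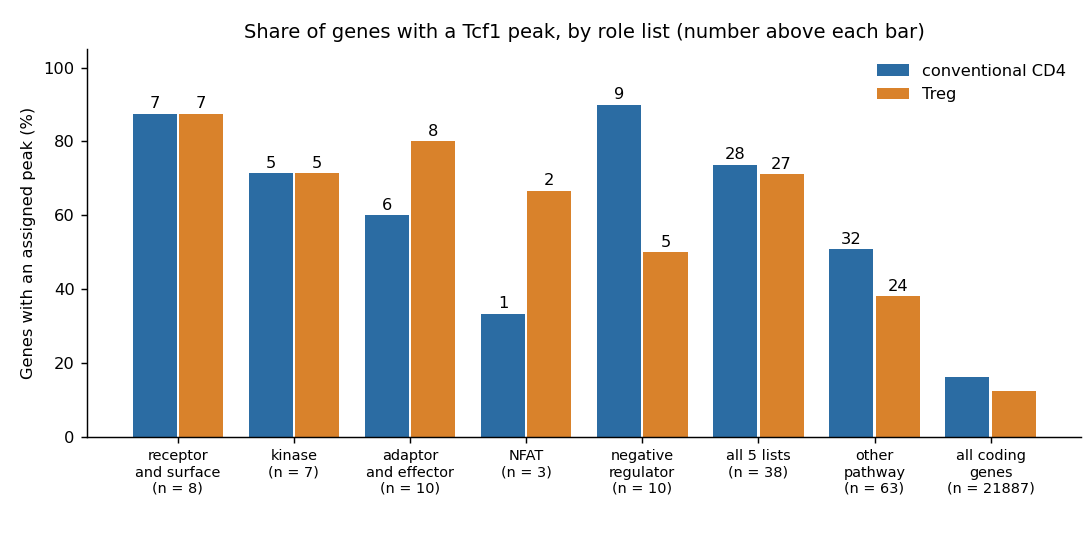
Share of genes with an assigned Tcf1 peak (vertical axis, %) in conventional (blue) and Treg (orange) lists, for each role list, the 5 lists together, other pathway genes and all 21887 protein-coding genes, with the number of genes above the bars of the lists. Every role list stands above the bars of all genes (16.3% and 12.3%), and among negative regulators the conventional bar (9 of 10) is taller than the Treg bar (5 of 10).

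Peaks of the 2 lists often fell on the same place. A peak was called shared when at least 1 bp of it lay in a peak from the other cell type, and unmatched when it had no such overlap and no midpoint of that list within 1000 bp of its own. Of the 56 conventional peaks at these genes 28 were shared, or 50% (95% exact binomial interval 36.3% to 63.7%), against 42.8% of the whole list. Of the 38 Treg peaks 28 were shared, or 73.7% (56.9% to 86.6%), against 56.9% of the whole list (55.2% to 58.6%). The intervals cover counting error alone, and peaks of 1 gene are not independent. Unmatched peaks numbered 26 in the conventional list, at 16 genes, and 8 in the Treg list, at 6 genes, and the other 2 of each list, at Cbl and Nfatc3, had a neighbour within 1000 bp that they did not touch.

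The 28 shared pairs lay at 21 genes. Their midpoints were a median of 58 bp apart (range 2 to 308 bp), and the median over all shared peaks was 59 bp. The conventional peak was the wider of the pair in 20 of 28 cases (71.4%), as it was in 69.3% of all 1934 shared conventional peaks. The narrowest conventional peak at these genes was 305 bp and the widest 1149 bp, and the Treg peaks ran from 244 to 786 bp. Shared conventional peaks had a median width of 482 bp and unmatched ones 401.5 bp, and unmatched Treg peaks were narrow, at 247 to 405 bp with a median of 305.5 bp. Across the whole lists the same medians were 497 and 388 bp for conventional peaks and 321 bp for unmatched Treg peaks, so the widths at these genes were close to those elsewhere.

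**Figure D2:**
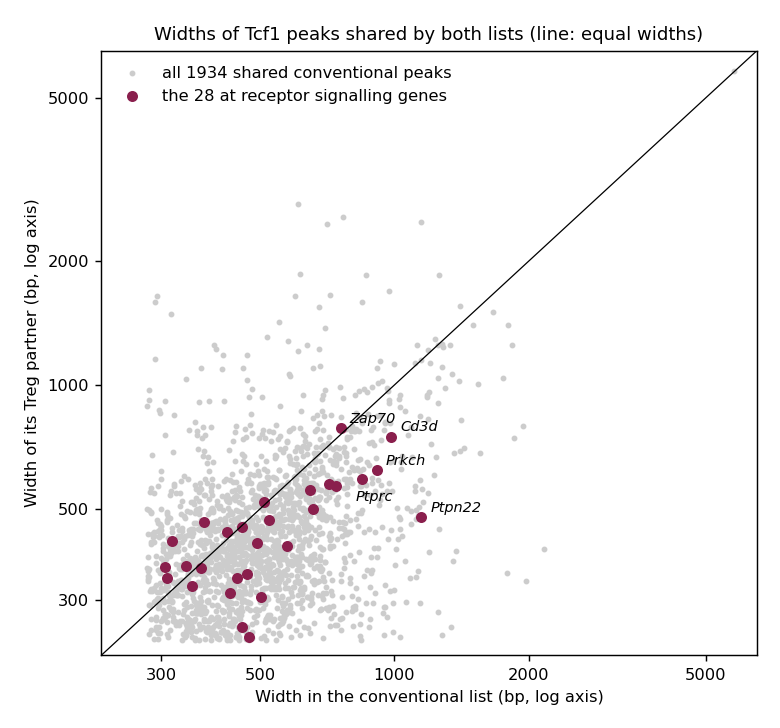
Width of each shared conventional peak (horizontal, bp, log axis) against the width of its Treg partner (vertical, bp, log axis), for all 1934 shared conventional peaks (grey) and the 28 at T cell receptor signalling genes (dark red), with the line of equal widths. The 28 lie within the cloud of the rest, 20 of them below the line, and Ptpn22 stands farthest to the right at 1149 bp against 476 bp.

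Peaks were next compared with gene starts, where an overlap of at least 1 bp was counted. RefSeq promoter windows on GRCm38.p6, which has the chromosome coordinates of mm10, run from 250 bases before to 50 bases after a listed start, and they were matched for 32 of the 38 genes (Cd2, Cd6, Prkch, Malt1, Nfatc1 and Sla had no entry). A window was overlapped by a conventional peak at 9 genes and by a Treg peak at 10, where 11.3% and 7.11% of 17492 genes with a window had such a peak. At 6 genes (4.75% of genes with a window) peaks of both lists overlapped windows, at Nfatc3 in different ones. In 5 windows peaks of both lists were present, at Cd3e, Cd5, Zap70, Itpkb and Ptpn22. A conventional peak with no Treg peak overlapped windows of Lck, Dgkz, Ubash3a, Nfatc3 and the other start of Ptpn22, and a Treg peak with no conventional peak overlapped windows of Fyn, Sos1, Bcl10, Cbl and the other start of Nfatc3.

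The 5 windows with peaks of both lists are printed because they are the promoters that both cell types share, followed by those of Lck and Fyn, which were chosen once the values had been seen because these related kinases had a peak in opposite lists. Each is given in the direction of transcription, with its place on GRCm38.p6 and its strand. Capitals mark CTTTG, the core of the TCF/LEF motif, and AGGAAG, an ETS motif, on either strand (so CAAAG and CTTCCT are also in capitals).
Zap70, chr1:36761548-36761847, plus strand: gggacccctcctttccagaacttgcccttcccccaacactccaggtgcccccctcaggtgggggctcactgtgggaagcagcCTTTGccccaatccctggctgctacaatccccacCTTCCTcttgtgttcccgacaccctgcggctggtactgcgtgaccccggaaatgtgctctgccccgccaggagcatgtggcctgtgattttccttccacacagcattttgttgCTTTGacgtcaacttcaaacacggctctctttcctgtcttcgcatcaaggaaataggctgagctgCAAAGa
Cd5, chr19:10738925-10739224, minus strand: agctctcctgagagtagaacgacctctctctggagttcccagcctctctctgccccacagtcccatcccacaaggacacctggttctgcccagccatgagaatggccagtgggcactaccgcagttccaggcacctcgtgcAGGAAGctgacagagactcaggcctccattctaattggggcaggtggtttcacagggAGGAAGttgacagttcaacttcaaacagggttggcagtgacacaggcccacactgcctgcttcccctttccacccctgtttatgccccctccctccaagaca
Cd3e, chr9:45009562-45009861, minus strand: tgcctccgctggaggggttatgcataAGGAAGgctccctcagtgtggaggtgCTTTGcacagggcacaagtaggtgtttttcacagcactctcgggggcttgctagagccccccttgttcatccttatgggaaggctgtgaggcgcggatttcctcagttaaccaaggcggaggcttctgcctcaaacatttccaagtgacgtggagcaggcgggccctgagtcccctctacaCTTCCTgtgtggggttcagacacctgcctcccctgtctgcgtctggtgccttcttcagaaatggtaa
Itpkb, chr1:180330226-180330525, plus strand: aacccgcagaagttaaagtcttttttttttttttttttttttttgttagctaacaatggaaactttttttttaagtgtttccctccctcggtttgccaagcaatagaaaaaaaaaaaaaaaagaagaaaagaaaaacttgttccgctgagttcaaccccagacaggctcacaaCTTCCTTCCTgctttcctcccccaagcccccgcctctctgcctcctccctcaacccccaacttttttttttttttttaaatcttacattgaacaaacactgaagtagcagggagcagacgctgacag
Ptpn22, chr3:103860027-103860326, plus strand: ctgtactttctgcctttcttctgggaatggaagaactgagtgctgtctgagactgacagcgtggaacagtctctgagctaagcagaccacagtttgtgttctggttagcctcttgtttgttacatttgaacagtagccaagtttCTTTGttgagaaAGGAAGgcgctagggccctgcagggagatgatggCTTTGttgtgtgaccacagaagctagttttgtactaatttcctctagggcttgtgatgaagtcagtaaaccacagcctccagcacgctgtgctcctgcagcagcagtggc
Lck, chr4:129558323-129558622, minus strand: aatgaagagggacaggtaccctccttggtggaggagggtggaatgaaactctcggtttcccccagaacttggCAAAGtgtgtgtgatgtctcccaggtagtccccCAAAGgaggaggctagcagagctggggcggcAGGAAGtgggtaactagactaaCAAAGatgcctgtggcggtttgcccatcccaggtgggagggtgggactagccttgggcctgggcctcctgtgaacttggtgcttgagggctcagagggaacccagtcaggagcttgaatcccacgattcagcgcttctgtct
Fyn, chr10:39369549-39369848, plus strand: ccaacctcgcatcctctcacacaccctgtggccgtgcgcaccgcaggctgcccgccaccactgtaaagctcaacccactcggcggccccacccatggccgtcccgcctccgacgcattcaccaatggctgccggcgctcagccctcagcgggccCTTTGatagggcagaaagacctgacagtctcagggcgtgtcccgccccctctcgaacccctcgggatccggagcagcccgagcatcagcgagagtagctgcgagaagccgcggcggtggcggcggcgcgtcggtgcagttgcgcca

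The Zap70 window lay wholly under the Treg peak and for 266 of its 300 bases under the conventional peak. It holds the core CTTTG at 168 and 21 bases before the start and, on the other strand, 44 bases after it, all 3 within the peaks of both lists. The Ptpn22 window lay wholly under both peaks and holds the core at 106 and 60 bases before the start, with an ETS motif between them at 94. The Cd5 window (243 bases under the conventional peak and all 300 under the Treg peak) and the Itpkb window (245 and 244 bases) hold no core and 2 ETS matches each. The 2 in Itpkb overlap each other. At Cd3e the midpoints of both peaks lay past the start, and the peaks covered 2 bases (conventional) and 87 bases (Treg) of its window. An ETS match 17 bases before the start was inside the Treg peak. The core in the Cd3e window lies 198 bases before the start, outside both peaks.

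Lck had its conventional peak over 134 bases of the window of its downstream start, and 2 of the 3 cores there, at 178 and 145 bases before the start, lay inside the peak. Fyn had a Treg peak over 273 bases of its window, with the 7-base motif CTTTGAT at 96 bases before the start. Of the 15 windows of these genes that a peak overlapped, the Fyn window was the one with CTTTGAA or CTTTGAT, which 7.57% of all 21263 windows held. The core alone was present in 8 of the 15 and AGGAAG in 12, against 51.2% and 34.4% of all windows. With or without a peak, 26 and 33 of the 47 windows of these genes held them. Over all genes, AGGAAG was in 33.0% of windows with a conventional peak and 33.5% of those with a Treg peak, and the core in 44.7% and 46.0%. The RUNX motif TGTGGTT was in 1 of the 15, at Ptpn22 (4.71% of all windows), and the AP-1 motif TGANTCA in 0 (6.99%). Each motif was searched on both strands, and the core is part of the 7-base motif. A match describes the letters in the window and is no measured binding site.

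Among the receptor chains, Cd3d, Cd3e and Cd247 had peaks and Cd3g had none of its own. The genes of the CD3 delta, epsilon and gamma chains lie side by side on chromosome 9. Cd3d had 1 shared peak at its downstream end, chr9:44986290-44987271 in the conventional list (982 bp) and chr9:44986265-44987012 in the Treg list (748 bp). It was among the widest peaks of both lists, at the 97.3 and 94.3 percentile of width. Cd3e, on the opposite strand, had the shared peak at its start (306 and 360 bp) and an unmatched conventional peak of 332 bp 462 bp outside its other end. The Cd3e pair was chr9:45009258-45009563 and chr9:45009289-45009648, and the unmatched peak chr9:44998108-44998439. For Cd3g, the nearest peaks lay 3853 bp (conventional) and 3769 bp (Treg) outside its span and were assigned to Ube4a. Cd247, which encodes the zeta chain, had 1 shared peak 52373 bp (conventional) and 52335 bp (Treg) downstream of its listed start, inside the gene (467 and 346 bp).

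Surface proteins that tune the receptor had peaks in both lists throughout. Ptprc encodes CD45, the phosphatase that keeps Lck ready to act, and its 2 peaks were both shared and wide. One lay inside the gene, 12248 bp (conventional) downstream of the nearest listed start (646 bp conventional, 555 bp Treg), and the other 16655 bp upstream (848 and 590 bp), each pair with midpoints 2 bp apart. Those were the closest pairs among the 28. Cd5, an inhibitory surface receptor, had the promoter peak (422 and 439 bp) and a shared peak 24824 bp (conventional) upstream (351 and 325 bp), which lay almost as close to its neighbour Cd6. Cd6, a relative of Cd5, had 1 shared peak 1782 bp (conventional) and 1709 bp (Treg) outside its span. Cd2, an adhesion receptor, had 1 shared peak near the end of its span (503 and 304 bp), an unmatched conventional peak 42307 bp outside it and an unmatched Treg peak of 331 bp within the gene. On mm10, the conventional peaks of Ptprc were chr1:138162556-138163201 and chr1:138191537-138192384 and its Treg peaks chr1:138162599-138163153 and chr1:138191664-138192253. Those of Cd5 were chr19:10738746-10739167 and chr19:10763623-10763973 (conventional) and chr19:10738795-10739233 and chr19:10763665-10763989 (Treg). Cd2 had chr3:101274627-101275129 with its Treg partner chr3:101274667-101274970, and the unmatched peaks chr3:101233435-101233767 (conventional) and chr3:101280357-101280687 (Treg).

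**Figure D3:**
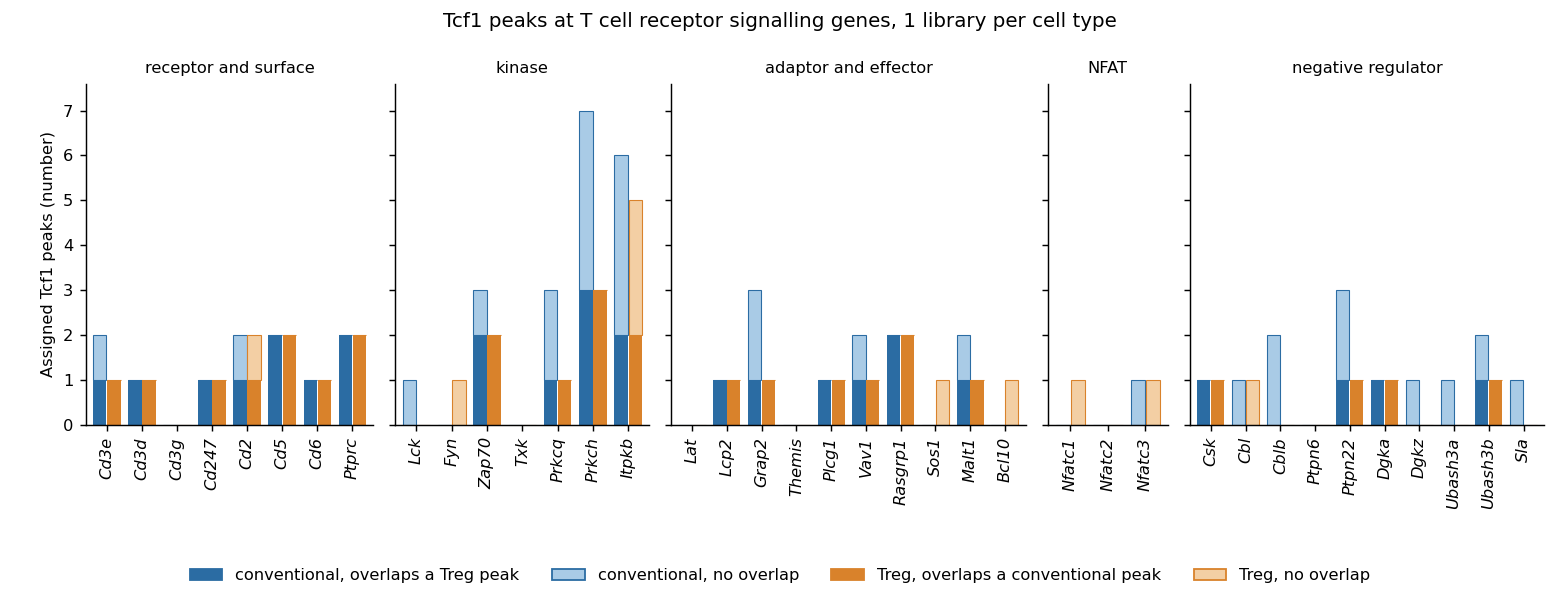
Number of assigned Tcf1 peaks (vertical axis) at each of the 38 genes by role list, for the conventional (blue) and Treg (orange) library, with dark parts for peaks that overlap one from the other cell type and pale parts for those that do not. Prkch (7 and 3) and Itpkb (6 and 5) have the tallest bars, and 6 genes have no bar.

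The kinases held the genes with the most peaks. Prkch, which encodes protein kinase C eta, had 7 conventional and 3 Treg peaks, all within its span on chromosome 12. All 3 Treg peaks were shared, and the widest pair was chr12:73604681-73605593 in the conventional list (913 bp) with a Treg partner of 621 bp. That partner was the middle one of the Treg peaks chr12:73598240-73598550, chr12:73604778-73605398 and chr12:73699522-73699860. The other shared conventional peaks of Prkch were chr12:73598201-73598628 and chr12:73699431-73699873. Its 4 unmatched conventional peaks, chr12:73679573-73679879, chr12:73687066-73687655, chr12:73698359-73698713 and chr12:73715799-73716184, were 307 to 590 bp wide. Itpkb, an inositol trisphosphate kinase that dampens calcium signals and produces a messenger that developing T cells need, had peaks only in its span on chromosome 1, 6 conventional and 5 Treg. In Itpkb 2 pairs were shared, the promoter pair and one 73270 bp (conventional) downstream, and both lists had unmatched peaks, 4 conventional and 3 Treg. The shared pairs of Itpkb were chr1:180330281-180330752 and chr1:180403588-180403904 in the conventional list and chr1:180330275-180330518 and chr1:180403506-180403922 in the Treg list. Unmatched in Itpkb were chr1:180332016-180332667, chr1:180335815-180336272, chr1:180366407-180366748 and chr1:180387294-180387639 (conventional, 342 to 652 bp wide) and chr1:180363908-180364233, chr1:180365105-180365386 and chr1:180390279-180390683 (Treg, 282 to 405 bp wide). At least 6 conventional peaks were assigned to 0.0685% of all genes, and at least 5 Treg peaks to 0.064%. Those shares are over genes of every length. Prkch spans 193390 bp and Itpkb 94413 bp, where the median protein-coding span was 17169 bp. In Itpkb 3 of 5 Treg peaks were thus unmatched, while every Treg peak of Prkch had a conventional partner.

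Zap70 carried wide peaks in both cell types at its start and in the gene. The promoter pair was 739 bp (conventional, chr1:36761582-36762320) and 569 bp (Treg, chr1:36761508-36762076). The inner pair lay 2690 bp (conventional) and 2656 bp (Treg) downstream of the nearest listed start and measured 758 bp (chr1:36766827-36767584) and 786 bp (chr1:36766779-36767564), so all 4 were at or above the 86.8 percentile of width in their list. A further conventional peak of 446 bp lay 1238 bp upstream (chr1:36760338-36760783) and had no Treg match. Prkcq encodes protein kinase C theta, the isoform recruited to the contact zone with the antigen-presenting cell. It had 1 shared peak in the gene, 32096 bp (conventional) downstream of the start (455 and 450 bp, midpoints 10 bp apart), and 2 unmatched conventional peaks of 503 and 504 bp, one inside the gene and one 12556 bp upstream. The Prkcq pair was chr2:11204251-11204705 and chr2:11204264-11204713, and the unmatched peaks chr2:11159575-11160078 and chr2:11195006-11195508.

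**Figure D4:**
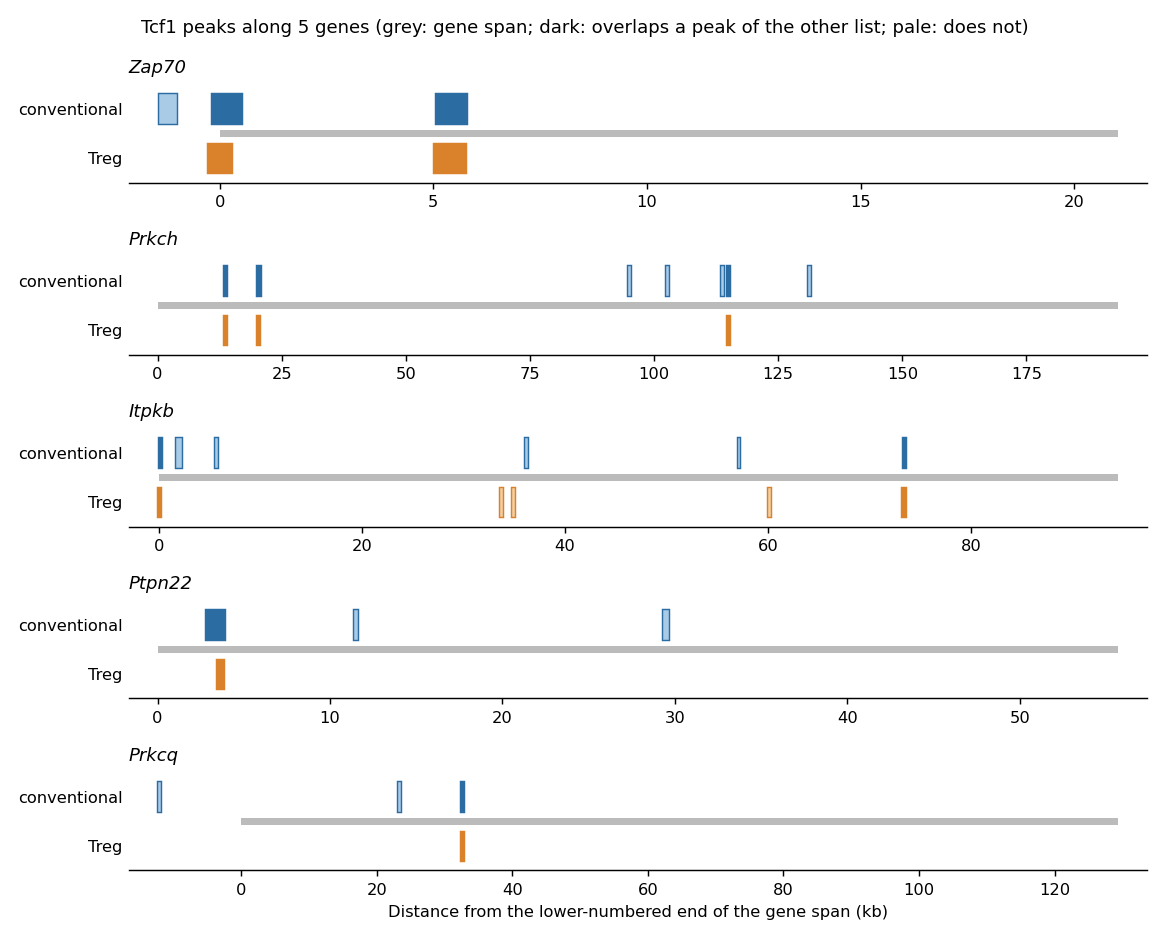
Position of Tcf1 peaks along Zap70, Prkch, Itpkb, Ptpn22 and Prkcq (horizontal axis, kb from the lower-numbered end of the gene span, a scale for each gene), with conventional peaks in blue above and Treg peaks in orange below the grey span, dark where they overlap one from the other cell type. The narrowest peaks are drawn slightly wider than scale so that they can be seen, and Itpkb is the one of these 5 genes with pale Treg peaks (3).

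The Src family kinases each had 1 peak, in opposite lists. Lck had the conventional peak of 451 bp, chr4:129558489-129558939, with its midpoint 342 bp upstream of the downstream start, and no Treg peak. The Treg peak nearest to the Lck span lay 1818 bp outside it and was assigned to Fam167b. Fyn had the Treg peak at its start, chr10:39369537-39369821, which at 285 bp was at the 21.5 percentile of width in its list, and the nearest conventional peak lay 48029 bp from its span. Txk, a Tec family kinase, had no peak, and the nearest lay 61001 bp (conventional) and 59729 bp (Treg) away.

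Of the 10 adaptors and effector enzymes, 6 had a shared peak. Lcp2 had 1 shared peak 3854 bp (conventional) and 3941 bp (Treg) upstream of its start (373 and 465 bp), and Plcg1, which encodes phospholipase C gamma 1, had 1 shared peak 25618 bp (conventional) downstream of the start (492 and 412 bp). Vav1, a guanine nucleotide exchange factor, had 1 shared peak 3400 bp (conventional) upstream of its start (509 and 520 bp) and an unmatched conventional peak 7784 bp downstream of it. Grap2 encodes GADS, the adaptor that joins SLP-76 to LAT. It had 1 shared peak in the gene (573 and 406 bp) and 2 unmatched conventional peaks, one of them in the gene and one 69 bp outside its span. Rasgrp1, the main Ras activator downstream of the receptor in T cells, differed in that both of its pairs were far from the gene, 74621 and 76027 bp upstream of the listed start (conventional). The pair nearer to the gene measured 657 and 500 bp and the other 341 and 362 bp, and the next protein-coding gene, Fam98b, was 145958 bp from the nearer one. The Rasgrp1 peaks were chr2:117417170-117417826 and chr2:117418734-117419074 (conventional) and chr2:117417316-117417815 and chr2:117418638-117418999 (Treg). The Vav1 pair was chr17:57275446-57275954 and chr17:57275371-57275890, with chr17:57286698-57287070 unmatched, and the Grap2 pair was chr15:80611443-80612015 and chr15:80611459-80611864, with chr15:80572332-80572724 and chr15:80602850-80603276 unmatched.

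Malt1, Bcl10 and Sos1 each had a Treg peak at a gene end, at the 8.8, 42.5 and 3.7 percentile of width in the list. Malt1, a protease of the NF-kappaB branch, had 1 shared peak at the end of its span (455 and 258 bp) and an unmatched conventional peak 15151 bp outside it. The Malt1 pair was chr18:65430744-65431198 and chr18:65430609-65430866, and the unmatched peak chr18:65415636-65415940. Bcl10, its scaffold partner, had a Treg peak of 343 bp over its start and the nearest conventional peak lay 129027 bp from its span. Sos1, a Ras exchange factor, had a Treg peak of 247 bp, 157 bp upstream of its start, and the nearest conventional peak lay 169266 bp from its span. The Treg peak of Sos1 was close to the shortest of the whole Treg list (240 bp). Lat and Themis had no peak. The nearest lay 30016 bp (conventional) and 29955 bp (Treg) from Lat, assigned to Nfatc2ip, and 74413 and 74432 bp from Themis, assigned to Ptprk.

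The products of the NFAT genes move to the nucleus on calcium signals. Of these 3 genes 1 had a conventional and 2 had a Treg peak, where 16.3% and 12.3% of all genes did. Nfatc1 had 1 Treg peak of 285 bp within the gene and the nearest conventional peak lay 136386 bp from its span. Nfatc3 had 1 peak in each list, chr8:106059147-106059555 (conventional, 409 bp) and chr8:106058686-106058984 (Treg, 299 bp), separated by 162 bp. The Treg peak lay over a listed start, and the conventional peak had its midpoint 239 bp upstream of another. Nfatc2 had none, with the nearest conventional peak 245878 bp and the nearest Treg peak 983502 bp from its span. The 1 conventional and 2 Treg peaks of NFAT genes were not shared by overlap, where 42.8% and 56.9% of the whole lists were.

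Negative regulators had 13 conventional and 5 Treg peaks. Of the 13, 4 were shared, 8 were unmatched and 1 lay near a Treg peak, and in the whole conventional list 2527 of 4519 peaks were unmatched. Ptpn22, a phosphatase that opposes Lck and Zap70, had the widest conventional peak of all 38 genes, chr3:103859316-103860464 (1149 bp, the 98.7 percentile of the list), which spanned both of its listed starts. Its Treg partner, chr3:103859961-103860436, was 476 bp wide and covered the downstream one of them. Ptpn22 had 2 more conventional peaks in the gene, chr3:103867893-103868221 and chr3:103885850-103886235, of 329 and 386 bp, with no Treg match. Csk, the kinase that inactivates Lck and Fyn, had 1 shared peak in the gene (524 and 469 bp). Dgka, a diacylglycerol kinase that limits Ras activation, had 1 shared peak 1303 bp (conventional) and 1264 bp (Treg) upstream of its start (712 and 573 bp), about as far from its neighbour Pym1.

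At 4 of the 10 negative regulators a conventional peak was present and no Treg peak was assigned. The same held for 8.1% of all protein-coding genes and for 13 of 63 other pathway genes. Among genes with a conventional peak, it held for 4 of 9 negative regulators, 1773 of 3561 protein-coding genes and 13 of 32 other pathway genes. By that count the share at negative regulators was not above that of all genes. Cblb, a ubiquitin ligase that sets the threshold of activation, had 2 conventional peaks deep in the gene, 98297 and 111726 bp downstream of its start (306 and 442 bp, chr16:52129694-52129999 and chr16:52143055-52143496). Dgkz, another diacylglycerol kinase, and Ubash3a, a suppressor of receptor signalling, each had 1 over a start (557 and 423 bp). Sla, an adaptor that lowers receptor levels, had 1 of 484 bp inside its span, which itself lies within Tg, so that peak was assigned to both. In the Treg list the nearest peak to each gene span lay 355806 bp (Cblb), 202617 bp (Dgkz), 304903 bp (Ubash3a) and 72662 bp (Sla) away. Of these 5 peaks, 3 stood at or above the 53.9 percentile of width and the narrowest, at Cblb, at 10.3.

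The remaining members of that list were mixed. Ubash3b, a phosphatase related to Ubash3a, had 1 unmatched conventional peak in the gene (410 bp) and 1 shared peak 67233 bp (conventional) outside its span (309 and 340 bp). The unmatched one of Ubash3b was chr9:41081004-41081413, and the pair chr9:41228771-41229079 and chr9:41228742-41229081. Cbl, a relative of Cblb, had 1 peak in each list, 846 bp (conventional) and 194 bp (Treg) upstream of its start. They were 310 and 259 bp wide, with 368 bp between them. Ptpn6, which encodes the phosphatase SHP-1, had none assigned, although 3 peaks of each list lay within 10 kb of its span, the nearest of them 2180 bp (conventional) and 2568 bp (Treg) away and assigned to Grcc10. When every peak within 10 kb of a span was counted, Ptpn6, Cd3g and Lck had peaks in both lists. By that count Rasgrp1 had no peak and Ubash3b no Treg peak.

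Most peaks lay within the genes. The midpoint was in the gene span for 39 of 56 conventional peaks (69.6%, against 59.5% of the whole list in any protein-coding span) and 24 of 38 Treg peaks (63.2%, against 53.8%). More than 10 kb outside the span lay 8 conventional and 5 Treg peaks, and all 5 of the Treg peaks, at Cd5, Ptprc, Rasgrp1 and Ubash3b, were shared. A midpoint within 1 kb of a listed start was found for 10 peaks of each list, of 43 conventional and 30 Treg peaks at genes with a listed start. The counts beyond 10 kb and within 1 kb were not set against the whole lists, so they are not read as a trait of these genes.

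Of 63 further genes of the pathway, 32 had a conventional peak (50.8%), 24 a Treg peak (38.1%) and 19 both, where 16.3%, 12.3% and 8.17% of all genes did. Of the inositol trisphosphate receptors that release calcium, Itpr1 had 3 conventional and 2 Treg peaks, Itpr2 had 3 and 1, and Itpr3 had none. Pik3cd and Pik3r1, subunits of phosphoinositide 3-kinase, had 3 and 2 conventional and 1 and 2 Treg peaks, and Inpp5d, which encodes the lipid phosphatase SHIP-1, had 2 and 1. A conventional peak with no Treg peak was found at 13 of the 63 genes (8.1% of all genes). Among genes with a conventional peak that is 13 of 32, against 1773 of 3561 over all genes. The reverse was found at 5 (4.13% of all genes), which included the tyrosine phosphatase genes Ptpn2, Ptpn7 and Ptpn11, together with Cd28 and Rasal3. These 5 were named after their values were seen.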

How the data were processed

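The data are 2 lists of Tcf1 ChIP-seq peaks, 1 per cell type. The authors deposited each list as 3 columns (chromosome, start, end), a position and no other value, with neither a count nor a score. Per the submitters' processing notes, FastQC, Bowtie2 2.3.4.1 and MACS2 2.1.1 were used with the mm10 build. The lists are named as filtered, and no source used here gives the filter, the calling settings or any control library. A threshold that follows depth can change which peaks are listed and how wide they are.

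Peaks were assigned to 21887 protein-coding spans of a RefSeq table of GRCm38.p6, and all 38 genes and 63 further pathway genes matched by symbol. Coordinates are printed from 1. Overlap needed 1 bp. Promoter windows came from RefSeq on the same assembly, and 808 of 808 overlapping windows on opposite strands were reverse complements of each other. Python 3.11.15, numpy 2.4.6, pandas 2.3.3, scipy 1.17.1 and matplotlib 3.10.9 were used. Assignment and overlap were tested on simulated data. No test between the cell types was run, with 1 library each. The genes and lists were chosen with earlier results of these data known. All 38 genes are accounted for, coordinates are printed for members with at least 2 peaks in a list or the widest peak of their role list, and for Lck and Fyn, added after their values were seen, and the rule for other pathway genes takes the 6 with most peaks, of which 1 is not reported here. Alternatives were other distance limits, the wider part of each list, equal list lengths, merged peaks, other definitions of overlap and Cd5 as a negative regulator.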

Additional observations from a re-analysis of the deposited data

How the results depend on the processing

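Of 99 values recomputed under alternatives, 87 stayed within 1.5 times the reported count, or within the interval of the reported share. Some of the 87 could not change. The Treg list is the shorter one and was kept whole for equal lengths. Moving Cd5 leaves the kinase, adaptor and NFAT counts as they were. None of the 12 others came from distance limits, equal list lengths, merging, overlap definitions or the role of Cd5. All 12 came from keeping the wider part of each list (2259 conventional and 1701 Treg peaks), which leaves fewer peaks to count. There 29 conventional and 18 Treg peaks remained at the 38 genes. A conventional peak was left at 20 genes, a Treg peak at 15 and a peak in both lists at 13. Over all genes 9.01% had a conventional and 6.57% a Treg peak under that setting, and the share with both is not given here. Overlap was not recomputed between the kept parts, nor for lists of equal length. Against the whole list of the other cell type, 65.5% of the kept conventional and 94.4% of the kept Treg peaks were shared (56.4% and 71.6% of all such peaks). Receptor and surface genes had a conventional peak at 4 members and a Treg peak at 3, adaptors and effectors a Treg peak at 5, NFAT genes a peak at 0 members in both lists, and negative regulators a Treg peak at 3. Negative regulators had a conventional peak at 6 members there, and at 8 with lists of equal length, where 5 had a Treg peak. With equal lengths, 12.9% of all genes had a conventional and 12.3% a Treg peak. No paired analysis was possible because each cell type had 1 library. Depth is unknown, so a gene without a peak may be bound below the calling threshold.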

Other observations

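Long noncoding RNA genes overlapped some of the peaks far from coding starts. At 5 genes a peak midpoint lay in a lncRNA span in both lists: Cd247 (Gm32999), Cd5 (A430093F15Rik), Itpkb (Gm39712), Lcp2 (4930469K13Rik) and Rasgrp1 (Gm13982). All 5 conventional and all 5 Treg peaks concerned were shared pairs, and no unshared peak at the 38 genes lay in a lncRNA span. That makes 8.93% of the 56 conventional and 13.2% of the 38 Treg peaks, against 10.3% and 10.8% of the whole lists. Over the whole lists 11.5% of shared and 9.44% of unshared conventional peaks lay in a lncRNA span, and 11.7% and 9.54% of Treg peaks. The pattern was noticed after the values were seen, and its counts are small.

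The 4 genes with a Treg peak and no conventional peak (Fyn, Sos1, Bcl10 and Nfatc1) had Treg peaks with widths of 285, 247, 343 and 285 bp, all under the list median of 366 bp. The 3 promoter windows among them were rich in G and C, at 69.0% (Fyn), 70.0% (Sos1) and 65.0% (Bcl10), where the median of all windows was 56.3%. The Dgkz window, with a conventional peak and no Treg peak, had 77.7%, and the Lck and Ubash3a windows had 57.3% and 54.7%. The part of peak width and base composition in which list holds a peak was not tested.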
